A study of Mus musculus with 12 samples.

Results

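The 29 genes described here carry out and control the synthesis of sterols and fatty acids. They were taken by symbol from a table of 55450 genes, and all 29 were in it and had enough counts to be tested. They comprise 6 genes of the mevalonate pathway, 11 that turn farnesyl diphosphate into cholesterol, 4 that regulate or carry sterols, and 8 of fatty acid synthesis and desaturation. RNA was sequenced from donor bone marrow cells that lacked lineage markers and carried the receptor Kit, a fraction of stem and early progenitor cells, sorted from mice that had received competitive bone marrow transplants. The donor genotypes were WT, Tet2 KO (written Tet2KO here), Id1 KO (Id1KO), and Tet2 KO + Id1KO (dKO), each with 3 libraries. The alleles, the ages of the mice and how many were pooled are not given in the sources used here. Tet2 encodes an enzyme that oxidises methylated cytosine, and Id1 encodes a protein that keeps helix-loop-helix transcription factors from binding DNA. The design asks what loss of Id1 does to cells that have lost Tet2.

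Cells build cholesterol from acetyl-CoA through the mevalonate pathway, which ends in farnesyl diphosphate, and then through squalene and lanosterol. When membrane sterol is low, the transcription factor SREBP2 (gene Srebf2) leaves the endoplasmic reticulum and raises nearly all of these genes, while INSIG1 holds it back when sterol is plentiful. SREBP1 (gene Srebf1) mainly drives the genes that build fatty acids and place double bonds in them, and dividing blood progenitors need both lipids for new membrane.

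Totals ran from 15706407 to 19959183 estimated counts per library. Mitochondrial and small structural RNA genes took 10.5 to 10.9% of counts in WT and 7.4 to 8.34% in the mutant genotypes. Scaling factors (TMM) were 0.9716 to 0.9735 in WT and 1.004 to 1.02 in the mutant genotypes. A scaling without these genes is given below, and any other part of this difference in comparisons against WT was not tested. Titles give the 3 libraries of a genotype 1 sample number, so they may be repeat libraries of 1 cell sample, and p-values measure only the spread between these libraries, which may be technical. The labels were checked against the targeted genes, and neither Tet2 nor Id1 was reduced where its loss is labelled. Tet2 was at 99.3 ± 2.2 CPM (mean ± SD, n = 3, with CPM the counts scaled to a common library size) for WT and 92 ± 1.5 for Id1KO, against 130 ± 2.5 for Tet2KO and 118 ± 3.1 for dKO. Id1 was at 1.47 ± 0.27 CPM for WT and 3.86 ± 0.42 for Tet2KO, against 3.96 ± 0.34 for Id1KO and 3.93 ± 0.5 for dKO. A gene-level sum does not show whether a deleted exon is missing, and the genotypes below are those of the labels. The sorting marker Kit was high throughout, at 315 to 365 CPM on average per genotype. Most markers of stroma, endothelium and fat were near absent, with Col3a1 at 0 in all libraries and another 7 of the 10 under 10 counts in every library.

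Promoter sequence was looked up for the genes in the RefSeq promoter table of build GRCm38.p6, which held 22 of the 29. Fdps, Fdft1, Sqle, Stard4, Scd1, Scd2 and Fads1 were not matched. In the 250 bases before each start, 4 motifs were searched on both strands: an SREBP site written TCACNCCAC, the NF-Y box CCAAT, the Sp1 box GGGCGG and the E-box CACGTG. NF-Y and Sp1 are the factors that commonly act beside SREBP at sterol genes. The NF-Y box was in 18 of 22 genes, against 37.5% of all 27025 genes in the table and 40.8% of the 9878 tested genes in it. The Sp1 box was also in 18 of 22, against 35.4% of all genes and 62.9% of those tested. The E-box was in 4 genes (Hsd17b7, Sc5d, Dhcr7 and Insig1), against 6.86% and 9.86%. The SREBP site was in 1, Hmgcs1, against 1.22% and 1.17%, and it starts 137 bases before the start of transcription. No motif overlapped a different one in these windows, a match is a description of letters, and no match says only that those letters are not in this window.

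The stretches below belong to 5 chosen genes, 1 from the head of the mevalonate pathway, 3 from the path to cholesterol, and Insig1. They are the parts of the windows that hold no annotated exon, printed in the direction of transcription, with motifs in capitals on either strand (ATTGG and CCGCCC are the NF-Y and Sp1 boxes read from the other strand). Hmgcs1 (chr13:119690101-119690350, plus strand) holds the SREBP site, 3 NF-Y boxes and 2 Sp1 boxes. Lss (chr10:76531355-76531587, plus strand) holds 1 NF-Y box and 2 Sp1 boxes. Hsd17b7 (chr1:169969242-169969408, minus strand) holds 2 NF-Y boxes, 2 Sp1 boxes and 1 E-box. Sc5d (chr9:42264301-42264550, minus strand) holds 1 NF-Y box, 2 Sp1 boxes and 1 E-box. Insig1 (chr5:28071162-28071362, plus strand) holds 1 NF-Y box, 3 Sp1 boxes and 1 E-box. The 5 are not the genes called most often, as Fads2 was called in 4 contrasts and Insig1 in 1. They include Hmgcs1, with the only SREBP site, and Hsd17b7, Sc5d and Insig1 of the 4 genes with an E-box. Among windows not shown, that of Acaca (chr11:84195188-84195437) held no motif. It lies inside the annotated gene, so the sequence before the gene's first base was not searched. Fads2 held 1 Sp1 box and Fasn held 3 NF-Y boxes. Mvk, also not shown, held 5 NF-Y boxes and 2 Sp1 boxes. The 5 windows therefore do not stand for the rest.
Hmgcs1: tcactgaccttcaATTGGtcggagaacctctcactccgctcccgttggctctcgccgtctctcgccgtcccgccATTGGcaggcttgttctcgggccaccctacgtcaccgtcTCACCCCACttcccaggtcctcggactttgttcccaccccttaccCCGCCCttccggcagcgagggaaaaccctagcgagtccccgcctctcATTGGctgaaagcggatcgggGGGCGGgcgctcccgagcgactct
Lss: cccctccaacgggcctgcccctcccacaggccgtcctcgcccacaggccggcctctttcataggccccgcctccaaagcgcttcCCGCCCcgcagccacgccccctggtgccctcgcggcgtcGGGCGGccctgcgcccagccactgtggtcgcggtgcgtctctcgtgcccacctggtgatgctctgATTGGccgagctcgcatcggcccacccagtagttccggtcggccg
Hsd17b7: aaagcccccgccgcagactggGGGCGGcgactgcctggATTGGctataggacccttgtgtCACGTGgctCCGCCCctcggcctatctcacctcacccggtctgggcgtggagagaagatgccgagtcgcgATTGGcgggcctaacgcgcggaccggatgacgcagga
Sc5d: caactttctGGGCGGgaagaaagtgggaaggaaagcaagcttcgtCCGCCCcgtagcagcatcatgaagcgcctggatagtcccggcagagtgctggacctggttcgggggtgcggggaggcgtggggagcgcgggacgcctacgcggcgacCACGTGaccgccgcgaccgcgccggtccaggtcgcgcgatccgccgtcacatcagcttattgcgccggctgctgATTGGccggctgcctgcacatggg
Insig1: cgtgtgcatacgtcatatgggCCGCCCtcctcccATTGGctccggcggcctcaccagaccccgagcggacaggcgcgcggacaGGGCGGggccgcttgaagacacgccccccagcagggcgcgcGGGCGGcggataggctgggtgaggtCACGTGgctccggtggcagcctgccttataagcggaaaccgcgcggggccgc

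In the libraries labelled Tet2KO, 5 genes of the path from squalene to cholesterol, 2 of the mevalonate pathway, 2 regulators and 2 fatty acid desaturases were lower than in WT, and Hmgcs1, Srebf2 and Acaca were higher. Of the 29 genes, 14 passed the test, 3 higher and 11 lower, which is 48.3% where 32.8% of all 14346 genes tested were called (edgeR's quasi-likelihood test, Benjamini-Hochberg adjusted p under 0.05). By direction the background was 16.6% higher and 16.2% lower. The median log2 fold change over the 29 genes was -0.12, against 0.00 over all genes, and 24 of 29 had a lower value. The changes were small, and only Scd1, Sqle, Lss and Mvd moved by more than 0.3 on the log2 scale, of which Mvd did not pass the test. With the 3 libraries of each genotype summed to 1, a fit by edgeR called 0 of the 29 genes for either label (3 for each at an unadjusted p under 0.05).

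Between Tet2KO and dKO, which differ in the Id1 label, Mvd, Fdft1, Sqle, Lss, Hsd17b7, Fasn, Scd1 and Fads2 were higher in dKO, and Acaca and Scd2 were lower. Here 10 of 29 genes passed, 8 higher and 2 lower, or 34.5% where 26.4% of all genes were called (13.1% higher and 13.4% lower). The median log2 fold change was 0.08 against 0.00 over all genes. This comparison shares the Tet2KO libraries with the one against WT, so the values of a gene in the 2 comparisons are not independent. Against WT, dKO differed in 4 genes, 1 higher and 3 lower, or 13.8% against a background of 19.2% (10.2% higher and 8.97% lower), with a median of -0.02. Id1KO differed from WT in 3 genes, 2 higher and 1 lower, or 10.3% against 15% (7.26% higher and 7.77% lower). Between dKO and Id1KO, 5 genes passed, 2 higher and 3 lower, or 17.2% against 19.3% (10.6% higher and 8.7% lower). The interaction, which asks whether the change with the Id1 label differed between the Tet2 backgrounds, was called for 4 genes, all positive, or 13.8% against 14.5% of all genes (7.46% positive and 7.03% negative).

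**Figure D1:**
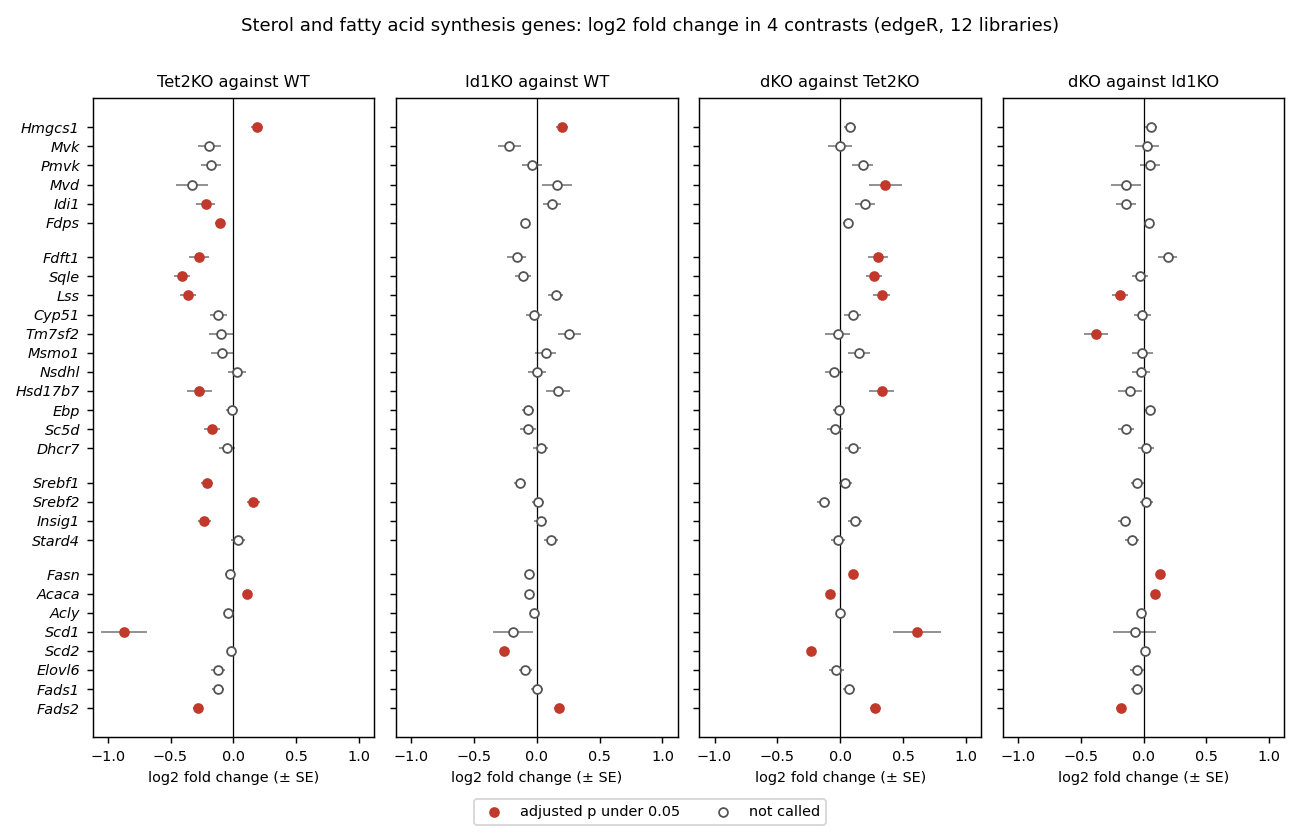
Log2 fold change (x axis, bars ± SE) of each of the 29 genes in 4 contrasts from 1 edgeR fit of 12 libraries, with filled points for adjusted p under 0.05 and open points for genes not called. In the first panel 11 filled points lie below 0 and 3 above it. In the third, 8 lie above and 2 below.

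The mevalonate pathway had 6 members. Against WT, Tet2KO was higher in 1, lower in 2 and not called in 3, or 50% called where 32.8% of all genes were. Hmgcs1 (ENSMUSG00000093930.2, chr13:119690379-119708260 in GENCODE M21), the synthase that makes HMG-CoA for the rate-limiting reductase step, rose in all 3 mutant genotypes. Its level was 50.8, 46.9 and 47.4 CPM in WT, 57.7, 56.6 and 51.4 in Tet2KO, 54.1, 55.7 and 57.4 in Id1KO, and 58.6, 57.5 and 58.4 in dKO. Every mutant library was above every WT library, and dKO was tightest. The log2 fold changes against WT were 0.19 ± 0.047 (SE, adjusted p = 0.00409, edgeR) in Tet2KO, 0.20 ± 0.046 (adjusted p = 0.005) in Id1KO and 0.27 ± 0.047 (adjusted p = 0.000367) in dKO. These 3 comparisons share the WT libraries. Neither dKO against Tet2KO, at 0.08 (interval of ± 2 SE from -0.02 to 0.17), nor dKO against Id1KO, at 0.06 (-0.03 to 0.15), was called, and Tet2KO against Id1KO was not tested.

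Further down the pathway the direction was lower. Idi1, the isomerase that makes dimethylallyl diphosphate, ran from 31 to 34.9 CPM in WT and from 26.7 to 29.7 in Tet2KO, a log2 fold change of -0.22 ± 0.077 (adjusted p = 0.0365, edgeR). Fdps, which makes farnesyl diphosphate, ran from 75.2 to 79.6 CPM in WT and from 69.3 to 74 in Tet2KO, a fall of 7.39% (adjusted p = 0.0323). Each call ended in 3 of 12 fits that left out 1 library, with adjusted p up to 0.186 for Idi1 without WT replicate 3 and 0.204 for Fdps without Tet2KO replicate 3, and DESeq2 did not call Fdps. Both have near-identical copies elsewhere in the genome, and with their counts added the log2 ratio was -0.2 for Idi1 and -0.11 for Fdps.

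Mvd (ENSMUSG00000006517.5, chr8:122433601-122443422), the decarboxylase that makes isopentenyl diphosphate, was at 5.49, 6.34 and 6.48 CPM in WT, 5.45, 4.35 and 4.74 in Tet2KO, 7.69, 6.3 and 6.55 in Id1KO, and 6.4, 5.45 and 6.79 in dKO. The lowest dKO library met the highest Tet2KO library. It was higher in dKO than in Tet2KO by 0.36 ± 0.13 on the log2 scale (adjusted p = 0.0481, edgeR), and the call ended in 7 of 12 fits that left out 1 library and under DESeq2. The kinases Mvk and Pmvk were called in no comparison.

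On the path from squalene to cholesterol, 5 of 11 members fell in Tet2KO against WT, none rose, and the median log2 fold change was -0.12. In dKO against Tet2KO 4 of the 11 rose, none fell, and the median was 0.10. These are 45.5% and 36.4% of the group, where 32.8% and 26.4% of all genes were called. The first count comprises Fdft1, Sqle, Lss, Hsd17b7 and Sc5d, and the second Fdft1, Sqle, Lss and Hsd17b7, in comparisons that share the Tet2KO libraries.

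Fdft1 (ENSMUSG00000021273.10, chr14:63145150-63179578), squalene synthase, is the first enzyme committed to sterols. It was at 13, 12.3 and 12.9 CPM in WT, 10.8, 10.7 and 10.1 in Tet2KO, 10.3, 11.9 and 11.9 in Id1KO, and 12.6, 13 and 13.3 in dKO. Tet2KO lay below WT and dKO without overlap, and Id1KO also lay below both. The log2 fold change was -0.27 ± 0.08 (adjusted p = 0.0129, edgeR) in Tet2KO against WT and 0.30 ± 0.081 (adjusted p = 0.00869) in dKO against Tet2KO. The interaction was 0.46 ± 0.11 (adjusted p = 0.00858), from a value of -0.16 for Id1KO against WT that was not called. Without Tet2KO replicate 3 the difference from WT had an adjusted p of 0.0611, and DESeq2 did not call it. The gene shares 774 bp of exon with Ctsb on the opposite strand, which was at 176 to 196 CPM on average per genotype, and the strand setting of the counting is not given in the sources used here.

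Sqle (ENSMUSG00000022351.14, chr15:59315077-59331192), squalene epoxidase, a rate-limiting oxygen-dependent step, was at 26.5, 30 and 29.5 CPM in WT, 22.7, 20 and 22 in Tet2KO, 25.2, 27.9 and 26.2 in Id1KO, and 26.1, 26.9 and 24.8 in dKO. All Tet2KO libraries lay below all other libraries. Sqle fell by 24.8% in Tet2KO against WT (log2 -0.41 ± 0.064, adjusted p = 5.12e-05, edgeR) and rose by 20.4% in dKO against Tet2KO (0.27 ± 0.066, adjusted p = 0.00499). The interaction was 0.38 ± 0.09 (adjusted p = 0.00706), and these 3 calls held in all 12 fits that left out 1 library.

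Lss (ENSMUSG00000033105.12, chr10:76531588-76557138), lanosterol synthase, closes the sterol rings. It was at 19.9, 19.3 and 21.7 CPM in WT, 16.5, 15.1 and 15.7 in Tet2KO, 22.4, 22.7 and 22.6 in Id1KO, and 19.9, 21.1 and 18.5 in dKO. Tet2KO was lowest and Id1KO highest without overlap, with WT and dKO between them. It fell by 22.3% in Tet2KO against WT (log2 -0.36 ± 0.066, adjusted p = 0.000254, edgeR) and rose by 25.7% in dKO against Tet2KO (0.33 ± 0.067, adjusted p = 0.00107). It also fell in dKO against Id1KO, by 0.19 on the log2 scale (SE 0.063, adjusted p = 0.0435), a call that ended in 6 of 12 fits without 1 library and under DESeq2.

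Hsd17b7 (ENSMUSG00000026675.12, chr1:169949535-169969241) reduces a keto group of sterol intermediates. It was at 7.15, 7.79 and 8.32 CPM in WT, 6.68, 6.14 and 6.46 in Tet2KO, 7.8, 9.26 and 9.13 in Id1KO, and 7.8, 7.96 and 8.45 in dKO. The Tet2KO libraries were the 3 lowest. The log2 fold change was -0.27 ± 0.1 (adjusted p = 0.0472, edgeR) against WT and 0.33 ± 0.1 (adjusted p = 0.023) from Tet2KO to dKO. The first call ended in 9 of 12 fits without 1 library (adjusted p up to 0.181, without WT replicate 3) and the second in 3 of 12 (0.0854, without dKO replicate 3), and both ended under DESeq2.

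Sc5d (ENSMUSG00000032018.14, chr9:42251595-42264256) is a desaturase acting near the end of the pathway. It was at 18.1, 19.2 and 18.6 CPM in WT, 16.4, 17.5 and 15.9 in Tet2KO, 18, 18.3 and 16.8 in Id1KO, and 15.9, 16.6 and 15.8 in dKO. Both genotypes labelled Tet2-null lay below WT. The log2 fold changes against WT were -0.17 ± 0.062 (adjusted p = 0.0436, edgeR) in Tet2KO, a call lost in 10 of 12 fits without 1 library, and -0.21 ± 0.062 (adjusted p = 0.0226) in dKO, lost in 4 of 12. DESeq2 called neither.

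Tm7sf2 (ENSMUSG00000024799.16, chr19:6062821-6068373), a sterol C14 reductase, differed only between dKO and Id1KO by the test. It was at 9.86, 9.98 and 9.77 CPM in WT, 9.81, 8.41 and 9.46 in Tet2KO, 12.4, 11.2 and 11.9 in Id1KO, and 8.4, 8.32 and 10.5 in dKO. The Id1KO libraries were the 3 highest of the 12. The log2 fold change of dKO against Id1KO was -0.38 ± 0.096 (adjusted p = 0.00778, edgeR). Its exons share 532 bp with Vps51 on the same strand, which was at 46.5 to 50.7 CPM on average per genotype, so the split of reads between them is uncertain. Cyp51, Msmo1, Nsdhl, Ebp and Dhcr7, which demethylate, isomerise and reduce the ring system, were called in no comparison.

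**Figure D2:**
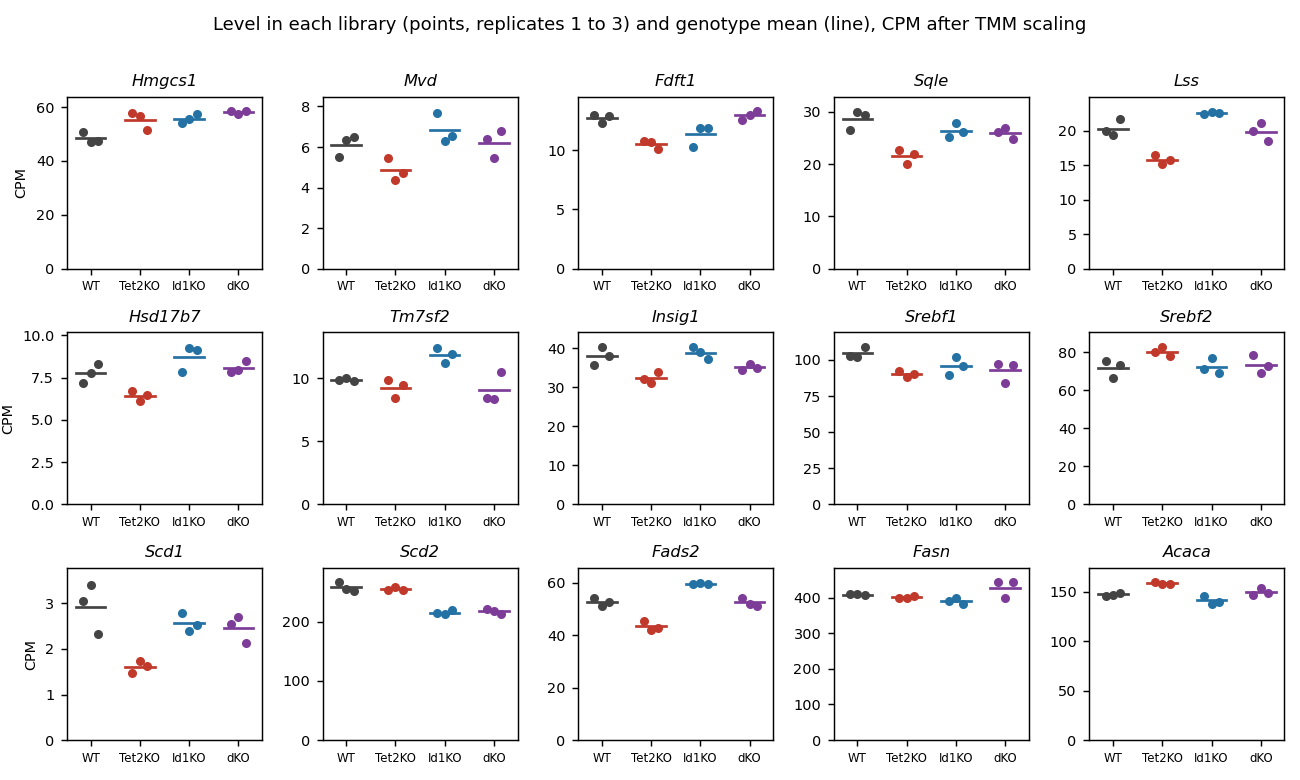
Level of 15 genes in each of 12 libraries (y axis, CPM after TMM scaling, from 0), with points for libraries and lines for the mean of 3. For Sqle, Lss, Hsd17b7, Insig1, Scd1 and Fads2 the 3 Tet2KO points lie below all 9 others.

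Of the 4 regulators and carriers, Srebf1 and Insig1 fell in Tet2KO against WT, Srebf2 rose, and Stard4, which carries cholesterol between membranes, was not called. That is 75% of only 4 genes, where 32.8% of all genes were called. Insig1 (ENSMUSG00000045294.11, chr5:28071363-28078662) was at 35.7, 40.3 and 38 CPM in WT, 32, 31 and 33.9 in Tet2KO, 40.3, 38.9 and 37.3 in Id1KO, and 34.4, 35.9 and 34.8 in dKO. Its Tet2KO libraries were the 3 lowest of the 12. It fell by 15% against WT (log2 -0.23 ± 0.053, adjusted p = 0.00202, edgeR), and dKO against Tet2KO, at 0.12 (interval of ± 2 SE from 0.01 to 0.23), did not pass (adjusted p = 0.133).

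Srebf1 (ENSMUSG00000020538.15, chr11:60199089-60222581) was at 103, 102 and 109 CPM in WT, 92.5, 88.5 and 90.2 in Tet2KO, 89.8, 102 and 95.7 in Id1KO, and 97.4, 84 and 96.8 in dKO. WT lay above both genotypes labelled Tet2-null. It fell by 13.7% in Tet2KO (log2 -0.21 ± 0.049, adjusted p = 0.00221, edgeR) and by 11.5% in dKO (-0.18 ± 0.049, adjusted p = 0.0148, and 0.105 without dKO replicate 2). Id1KO against WT, at -0.13 (adjusted p = 0.0769, edgeR), and dKO against Id1KO, at -0.05 (adjusted p = 0.575), were not called. Srebf1 shares 109 bp with Rai1 on the opposite strand, which was at 78.8 to 99.5 CPM on average per genotype.

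Srebf2 (ENSMUSG00000022463.8, chr15:82147181-82205379) was higher in Tet2KO. It was at 75.5, 66.6 and 73.2 CPM in WT, 80, 83 and 78.1 in Tet2KO, 71.4, 76.8 and 69 in Id1KO, and 78.7, 69.1 and 72.8 in dKO. Tet2KO lay above WT without overlap, and dKO overlapped both. The rise in Tet2KO was 11.9% (log2 0.16 ± 0.051, adjusted p = 0.0187, edgeR), with an adjusted p of 0.11 without WT replicate 2. The change from Tet2KO to dKO was -0.13 ± 0.052 and did not pass (adjusted p = 0.0746).

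Of the 8 fatty acid genes, Scd1 and Fads2 fell, Acaca rose, and 5 were not called in Tet2KO against WT. In dKO against Tet2KO, Scd1, Fads2 and Fasn rose and Acaca and Scd2 fell. These are 37.5% and 62.5% of the group, where 32.8% and 26.4% of all genes were called. Fads2 (ENSMUSG00000024665.8, chr19:10062765-10101746), the delta-6 desaturase of polyunsaturated fatty acid synthesis, was called in 4 of the 5 comparisons between 2 genotypes. It was at 54.2, 51.3 and 52.8 CPM in WT, 45.3, 42.1 and 42.7 in Tet2KO, 59.5, 59.9 and 59.4 in Id1KO, and 54.4, 51.9 and 51.3 in dKO. Tet2KO was lowest, Id1KO highest, and WT and dKO overlapped between them.

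Fads2 was called for both labels. With the Tet2 label it fell by 17.9% on the WT background (log2 -0.28 ± 0.042, adjusted p = 2.99e-05, edgeR) and by 11.9% on the Id1KO background (-0.18 ± 0.041, adjusted p = 0.00293). With the Id1 label Fads2 rose by 13% against WT (0.18 ± 0.04, adjusted p = 0.00483) and by 21.1% from Tet2KO to dKO (0.28 ± 0.043, adjusted p = 7.39e-05). The interaction was 0.10 ± 0.059 and was not called (adjusted p = 0.28), and the 4 calls held in all fits that left out 1 library.

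Scd2 (ENSMUSG00000025203.6, chr19:44293674-44306864), a delta-9 stearoyl-CoA desaturase and the abundant isoform in these cells, followed the Id1 label alone by the test. It was at 266, 255 and 252 CPM in WT, 253, 258 and 253 in Tet2KO, 214, 212 and 219 in Id1KO, and 222, 217 and 213 in dKO. The 6 libraries labelled Id1-null lay below the other 6. It fell by 16.5% in Id1KO against WT (log2 -0.26 ± 0.027, adjusted p = 1.7e-06, edgeR) and by 14.7% in dKO against Tet2KO (-0.23 ± 0.028, adjusted p = 5.01e-06). Tet2KO against WT was -0.02 (interval of ± 2 SE from -0.07 to 0.04).

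Scd1 (ENSMUSG00000037071.3, chr19:44394455-44407879), its neighbour and paralog, was scarce. It was at 3.06, 3.4 and 2.33 CPM in WT, 1.47, 1.73 and 1.62 in Tet2KO, 2.8, 2.4 and 2.53 in Id1KO, and 2.54, 2.7 and 2.13 in dKO, from at least 24 counts per library. The Tet2KO libraries were the 3 lowest. Scd1 fell by 45.2% in Tet2KO against WT (log2 -0.87 ± 0.18, adjusted p = 0.00102, edgeR), and rose by 52.3% from Tet2KO to dKO (0.61 ± 0.19, adjusted p = 0.0245, a call lost in 4 of 12 fits without 1 library and under DESeq2). The 2 genes are 95.5% identical over 623 bp of exon and Scd2 is far more abundant, so the split of reads is uncertain. The log2 ratio of the summed pair was -0.02 between Tet2KO and WT and -0.22 from Tet2KO to dKO, where Scd2 fell.

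Fasn (ENSMUSG00000025153.9, chr11:120805846-120824547), fatty acid synthase, was at 409, 409 and 407 CPM in WT, 400, 398 and 405 in Tet2KO, 391, 400 and 382 in Id1KO, and 443, 398 and 444 in dKO. In dKO 2 libraries were above all others and replicate 2 lay among them. It rose by 6.83% from Tet2KO to dKO (log2 0.10 ± 0.034, adjusted p = 0.0444, edgeR, a call lost in 9 of 12 fits without 1 library, with 0.217 without dKO replicate 3) and by 9.55% from Id1KO to dKO (0.13 ± 0.034, adjusted p = 0.00917, lost in 2 of 12 such fits, with 0.0626 without dKO replicate 3).

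Acaca (ENSMUSG00000020532.18, chr11:84129672-84401651), the acetyl-CoA carboxylase that supplies malonyl-CoA, was at 146, 147 and 149 CPM in WT, 160, 158 and 158 in Tet2KO, 146, 138 and 140 in Id1KO, and 147, 154 and 149 in dKO. Tet2KO was above all other libraries. The log2 fold change was 0.11 ± 0.029 in Tet2KO against WT (adjusted p = 0.00599, edgeR) and -0.08 ± 0.029 in dKO against Tet2KO (adjusted p = 0.0411, lost in 5 of 12 fits without 1 library). It was also higher in dKO than in Id1KO (0.09 ± 0.029, adjusted p = 0.0435, lost in 9 of 12 such fits). Both Acaca calls that involve dKO ended under DESeq2, and the one against Id1KO also ended with RLE scaling.

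The 11 genes called in no comparison were Mvk, Pmvk, Cyp51, Msmo1, Nsdhl, Ebp, Dhcr7, Stard4, Acly, Elovl6 and Fads1. Their largest log2 fold change over the 6 contrasts, in size, ran from 0.04 for Acly, which makes cytosolic acetyl-CoA, to 0.22 for Mvk and Pmvk. The closest to the threshold was Fads1, the delta-5 desaturase, in Tet2KO against WT (log2 -0.12 ± 0.047, adjusted p = 0.0542, edgeR).

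Per length of exon, the most abundant gene was Acly, at a mean over genotypes of 62.8 CPM per kb, followed by Scd2 at 43.2 and Fasn at 37.2. The scarcest were Lss at 1.82, Hsd17b7 at 1.52 and Scd1 at 0.489 CPM per kb.

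**Figure D3:**
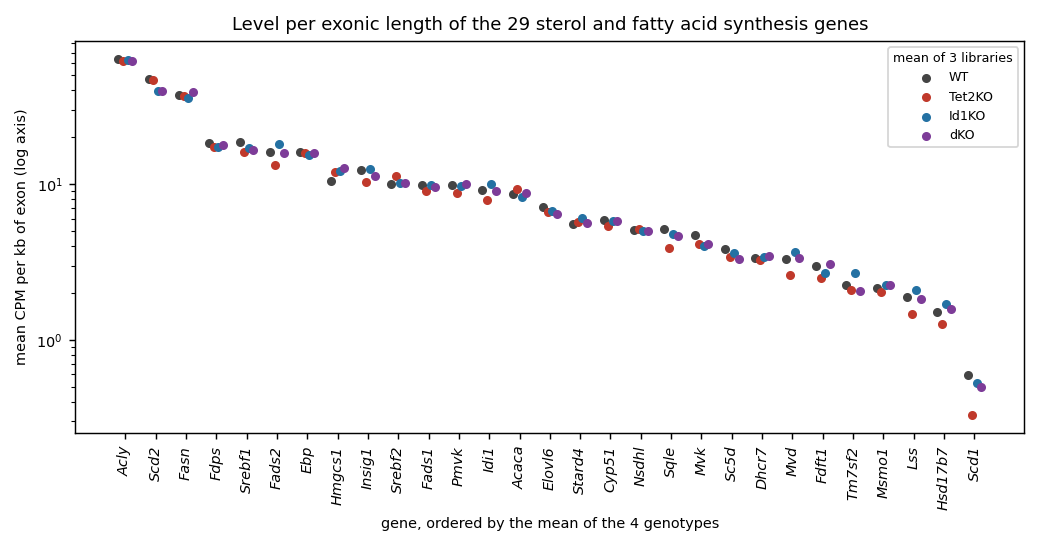
Level per exonic length (y axis, mean CPM per kb of exon, log axis) of the 29 genes, ordered by the mean of the 4 genotypes, with points for the mean of 3 libraries. Acly, Scd2 and Fasn are highest and Scd1 is lowest, and for Scd2 the Id1KO and dKO points lie together below the other 2.

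The effect of each label can be read in 2 pairs of comparisons that share no library. For the Tet2 label, 14 genes were called on the WT background and 5 on the Id1KO background. Of these, 3 were in both (21.4% and 60% of each list), with Acaca higher and Fads2 and Lss lower in each. On the Id1KO background, the Acaca and Lss calls were lost in 9 and 6 of 12 fits without 1 library, and under DESeq2. For the Id1 label, 3 were called on the WT background and 10 on the Tet2KO background, with 2 in both (66.7% and 20%), Fads2 higher and Scd2 lower in each. The matching overlap over all genes tested was not counted. Whether either overlap exceeds what the lengths of the lists alone would give was not tested. Only the interaction tests a difference between backgrounds, and it was called for Fdft1, Sqle, Fasn and Scd1. For Fasn it was 0.16 ± 0.048 (adjusted p = 0.0321, edgeR), and for Scd1 0.80 ± 0.25 (adjusted p = 0.0401). These calls were lost in 10 and 9 of 12 fits that left out 1 library, and the Scd1 call also under DESeq2.

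Summed over each gene group, Tet2KO averaged 89.8% of the WT mean for the path from squalene to cholesterol, 95.8% for the mevalonate pathway, 95.7% for regulators and transport and 97.9% for fatty acid genes. The squalene to cholesterol sum ran from 204 to 210.6 CPM in WT and 184.1 to 190.9 in Tet2KO, and from 202.4 to 213.9 in Id1KO and 198 to 204.7 in dKO, so Tet2KO did not overlap the other genotypes. The mevalonate sum overlapped between WT (190.4 to 198.9) and Tet2KO (177.1 to 193.9). The fatty acid sum was led by the abundant Fasn, Acly and Scd2 and ran from 1296 to 1307 in WT and 1266 to 1282 in Tet2KO, and from 1229 to 1235 in Id1KO and 1233 to 1296 in dKO.

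Markers of red cell progenitors moved in the same libraries. Of 20 erythroid markers, 19 fell in Tet2KO against WT (95% against 32.8% of all genes, median log2 -0.85), and none was at 0. In dKO against Tet2KO 19 of the markers rose (95% against 26.4%, median 0.90). Their summed level was 2102 to 2156 CPM in WT and 1251 to 1267 in Tet2KO, and it was 2319 to 2343 in Id1KO and 2110 to 2124 in dKO. Of 15 S phase genes, 7 fell in Tet2KO against WT and 7 rose in dKO against Tet2KO. That is 46.7% each time, against 32.8% and 26.4% of all genes. Their sums were 4178 to 4300 CPM in WT, 4000 to 4040 in Tet2KO, 4116 to 4187 in Id1KO and 4213 to 4282 in dKO. The part of either in the sterol gene values was not tested, and in bulk samples fewer cells of a type and less RNA per cell cannot be told apart.

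Other marker lists moved too, and their part in the values of the 29 genes was not tested. Of 12 tested monocyte and dendritic markers, 7 rose and 1 fell in Tet2KO against WT, and 1 rose and 7 fell in Id1KO against WT. That is 66.7% each time, against 32.8% and 15% of all genes. Of 11 tested stem and multipotent markers, 5 rose and 2 fell in Tet2KO against WT (63.6% against 32.8%). Of 15 G2 and M phase genes, 10 rose in Id1KO against WT (66.7% against 15% of all genes) and 12 in dKO against Tet2KO (80% against 26.4%). None fell in either. The sums were 2872 to 2911 CPM in WT, 2997 to 3020 in Tet2KO, 3055 to 3140 in Id1KO, and 3198 to 3307 in dKO. Megakaryocyte markers rose for 4 of 10 in Id1KO against WT (40% against 15%). Their sums were 249.5 to 258.9 CPM in WT and 331.7 to 343.2 in Id1KO. Mast cell, basophil and eosinophil markers rose for 4 of 9 tested in Id1KO against WT (44.4% against 15%). In Tet2KO against WT 3 rose and 5 fell (88.9% against 32.8%). Their sums were 486.9 to 494 CPM in WT, 437.3 to 440.2 in Tet2KO, 596.9 to 602.9 in Id1KO and 400.7 to 406.5 in dKO. Lymphoid markers rose for 6 of 12 tested in Tet2KO against WT (50% against 32.8%). Their sums were 132.6 to 137.8 CPM in WT and 175.1 to 181.3 in Tet2KO. The neutrophil list was mixed by gene, with 5 of 12 tested markers higher and 4 lower in Tet2KO against WT (75% against 32.8%). In Id1KO against WT 1 was higher and 2 lower (25% against 15%). Summed, the list was at 14180 to 14240 CPM in WT and 15640 to 15880 in Tet2KO. It was at 11940 to 12920 in Id1KO and 11720 to 12920 in dKO.

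**Figure D4:**
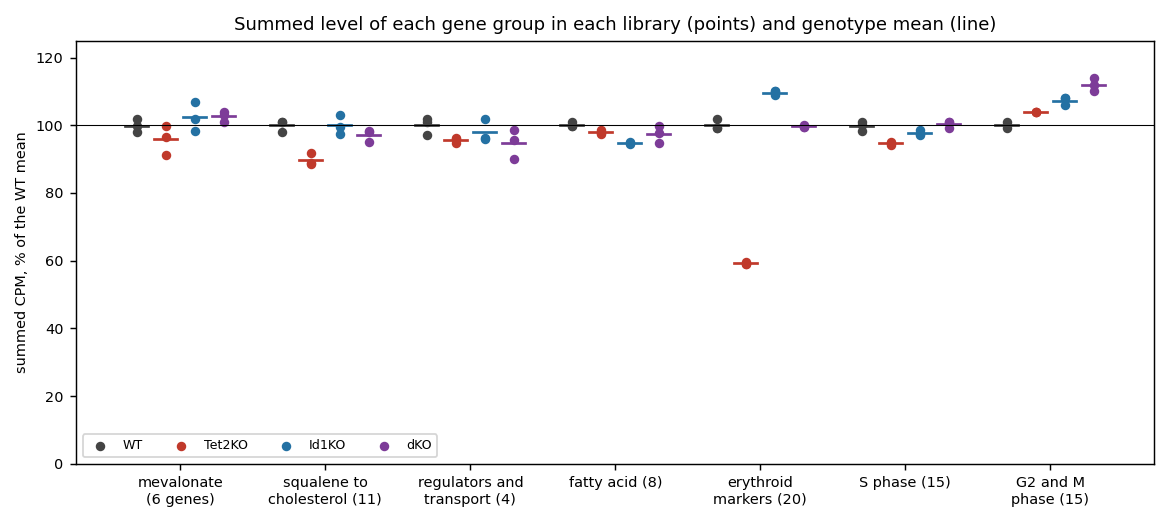
Summed CPM of 4 groups of sterol and fatty acid genes and 3 marker lists in each library, as % of the WT mean (y axis, from 0), with points for libraries and lines for the mean of 3. The squalene to cholesterol sum in Tet2KO averages 89.8% of WT, and the erythroid marker sum in Tet2KO lies furthest from WT.

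Outside the 29 genes, 4 further lists were counted. Of 34 tested genes of sterol synthesis and SREBP control, 6 rose and 7 fell in Tet2KO against WT, and 3 rose and 3 fell in dKO against Tet2KO. These are 38.2% and 17.6% of the list, where 32.8% and 26.4% of all genes were called. Soat1, which esterifies cholesterol for storage, rose by 21.3% in Tet2KO against WT (adjusted p = 8.18e-07, edgeR), and Nfya, a subunit of NF-Y, rose by 20.8% (adjusted p = 5.24e-06). From Tet2KO to dKO Nfya fell by 8.81% (adjusted p = 0.00794), and Prkaa1, a catalytic subunit of AMP-activated kinase, and Tmem97, a sterol-binding membrane protein, rose by 12.2% and 12.1% (adjusted p = 0.00363 and 0.0153).

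Of 24 tested further genes of fatty acid synthesis, none rose and 8 fell in Tet2KO against WT, and 6 rose and 2 fell in dKO against Tet2KO, or 33.3% of the list each time against the same backgrounds of 32.8% and 26.4%. Acss2, which makes acetyl-CoA from acetate, averaged 33.5 ± 0.43 CPM in WT against 24.7 ± 0.56 in Tet2KO, and stood at 36.5 ± 1.3 in Id1KO and 36.6 ± 2.8 in dKO. It fell in Tet2KO (log2 -0.44 ± 0.056, adjusted p = 5.84e-06, edgeR) and rose from Tet2KO to dKO (0.56 ± 0.057, adjusted p = 4.18e-07). Fads3, a desaturase gene beside Fads2, fell by 0.56 on the log2 scale (SE 0.12, adjusted p = 0.00122) and rose by 0.57 (SE 0.12, adjusted p = 0.00157) in the same 2 comparisons. Fads6, a related gene, fell by 22.2% from Tet2KO to dKO (adjusted p = 0.0406). Lpin1, a phosphatidate phosphatase of glyceride synthesis, fell by 22.4% (adjusted p = 2.83e-05) and rose by 25.3% (adjusted p = 0.000188).

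Of 13 tested genes of sterol export and LXR targets, 4 rose and 2 fell in Tet2KO against WT, and 1 rose and 4 fell in dKO against Tet2KO, or 46.2% and 38.5% against 32.8% and 26.4%. The cholesterol exporters Abca1 and Abcg1 were highest in Tet2KO. Abca1 averaged 13 ± 0.2 CPM in WT against 18.5 ± 0.52 in Tet2KO, and stood at 10.8 ± 0.54 in Id1KO and 10.8 ± 1.1 in dKO, with log2 fold changes of 0.50 ± 0.074 in Tet2KO against WT (adjusted p = 2.65e-05, edgeR) and -0.77 ± 0.077 in dKO against Tet2KO (adjusted p = 4.15e-07). Abcg1 was at 28.8 ± 0.91, 36.8 ± 1.9, 21.4 ± 1.2 and 23.5 ± 2 CPM in the same order, with changes in these comparisons of 0.35 ± 0.059 (adjusted p = 0.000106) and -0.65 ± 0.062 (adjusted p = 2.21e-07). Abcg4, a related sterol transporter, was lowest in Tet2KO. It averaged 12.1 ± 0.58 CPM in WT against 6.58 ± 0.4 in Tet2KO, and stood at 13.6 ± 1.1 in Id1KO and 11.7 ± 0.54 in dKO, with changes of -0.88 ± 0.091 (adjusted p = 3.55e-07) and 0.83 ± 0.093 (adjusted p = 1.8e-06).

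Of 17 tested genes of fatty acid oxidation, 2 rose and 6 fell in Tet2KO against WT, and 1 rose and 2 fell in dKO against Tet2KO, or 47.1% and 17.6% against 32.8% and 26.4%. Acadvl, the very long chain acyl-CoA dehydrogenase, fell by 15.8% (adjusted p = 2.88e-05, edgeR) in Tet2KO against WT. Acaa2, a mitochondrial thiolase, fell by 14.1% (adjusted p = 2.35e-05). Hadh, a hydroxyacyl-CoA dehydrogenase, fell by 7.18% from Tet2KO to dKO (adjusted p = 0.042). Etfdh passes electrons from acyl-CoA dehydrogenases such as Acadvl to the respiratory chain. It fell by 12% in Tet2KO against WT (adjusted p = 0.00173) and rose by 9.06% from Tet2KO to dKO (adjusted p = 0.0333). Cpt1a, which admits long acyl chains to the mitochondrion, rose by 8.41% in Tet2KO against WT (adjusted p = 0.00193) and fell by 5.87% from Tet2KO to dKO (adjusted p = 0.0198).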

How the data were processed

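Per the labels' protocols, RNA from sorted cells (RNeasy Micro) went into Illumina stranded total RNA libraries with Ribo-Zero depletion. The authors deposited estimated counts per gene, not normalized, which need not be whole. Per the submitters' processing notes, STAR, RSEM and mm10 were used, with versions, roles and strand setting not given in the sources used here. All 55450 gene identifiers matched GENCODE M21 (GRCm38), used for symbols, positions, exonic lengths and overlaps. Similar exonic sequence (95% identity over at least 100 bp) was sought with blast 2.17.0.

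Estimated counts were rounded, genes filtered by filterByExpr (minimum count 10, leaving 14346), scaled by TMM and fitted by edgeR 4.0.16 (R 4.3.3) with 1 mean per genotype over 12 libraries. Two-sided quasi-likelihood F-tests were adjusted by Benjamini-Hochberg over all genes tested. CPM uses the same scaling, and an SE is the log2 fold change over the root of F. With 3 libraries a side, the smallest exact permutation p is 0.1. All 12 pairs of libraries within a genotype differed beyond sampling noise (chi-square, genes of 20 or more summed counts) and were kept apart. Totals of 15706407 to 19959183 give each of the 29 genes at least 24 counts per library. The steps were tested on simulated data. For Tet2KO against WT, 93% of genes changed 2-fold and 49.5% of genes changed 1.2-fold were recovered. For the interaction, 87.5% and 19.5% were recovered. A gene not called may therefore still hold a small change.

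Genes and lists were chosen with earlier results of these data known. Values per library are given for the 5 largest called changes per contrast and for Srebf1, Srebf2, Insig1 and Hmgcs1. From each further list, up to 3 called genes with the largest change are named in each of 2 contrasts, of which 1 gene is not reported here. Alternatives were DESeq2 1.42.0, RLE scaling, scaling without structural RNA genes, other filters, only the libraries compared, a replicate block, libraries summed per genotype, a threshold of 0.01 and leaving out each library. Figures used matplotlib 3.10.9.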

Additional observations from a re-analysis of the deposited data

Results flagged for a closer look

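Among the 29 genes and the genes named above from the further lists, 11 were called for the interaction, in which the change with the Id1 label is compared between the 2 Tet2 backgrounds (edgeR's quasi-likelihood test, adjusted over all genes, threshold 0.05, with a background of 14.5% of genes called). Among the 29 genes the log2 interaction was 0.46 ± 0.11 for Fdft1 (SE, adjusted p = 0.00858), 0.38 ± 0.09 for Sqle (0.00706), 0.16 ± 0.048 for Fasn (0.0321) and 0.80 ± 0.25 for Scd1 (0.0401). All 4 were higher in dKO than in Tet2KO.

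In the further lists the interaction was 0.44 ± 0.077 for Acss2 (adjusted p = 0.000653, edgeR), 0.33 ± 0.075 for Lpin1 (0.00611), 0.51 ± 0.16 for Fads3 (0.0426) and 0.66 ± 0.12 for Abcg4 (0.00117). It was negative for Abca1 at -0.50 ± 0.11 (0.00451), Cpt1a at -0.21 ± 0.037 (0.000608) and Nfya at -0.21 ± 0.05 (0.00813). The erythroid marker sums given above moved in the same libraries, and their part in these values was not tested.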

How the results depend on the processing

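No member call changed direction under any alternative run. Of 40 calls over the 6 contrasts, 39 held with RLE scaling, 40 with the stricter filter, 40 with scaling without structural RNA genes, 33 with no filter, 28 with DESeq2 and 23 at an adjusted p under 0.01. Summing the 3 libraries of a genotype, with additive label effects fitted by edgeR, left 0 members called for either label, in each of the 4 comparisons it covers. There 3 members had an unadjusted p under 0.05 for each label, and 232 and 7 genes in all were called for Tet2 and Id1. This model has 4 samples and 1 residual degree of freedom.

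Counts of members called moved as follows. DESeq2 gave 6 in place of 10 for dKO against Tet2KO and 3 in place of 5 for dKO against Id1KO. For the latter, no filter and a fit of only the libraries compared each gave 3. At an adjusted p under 0.01, Tet2KO kept 8 and dKO 2 calls against WT, dKO had 5 against Tet2KO and 3 against Id1KO, and the interaction had 2. Leaving out each library gave 9 to 14 calls between Tet2KO and WT (9 without Tet2KO replicate 3), 3 to 4 between Id1KO and WT, 2 to 5 between dKO and WT (2 without WT replicate 3) and 5 to 11 between dKO and Tet2KO (5 without Tet2KO replicate 3, and 6 without Tet2KO replicate 2 or dKO replicate 3). It gave 2 to 6 between dKO and Id1KO (2 without dKO replicate 3, and 3 without dKO replicate 1 or Tet2KO replicate 3). For the interaction it gave 2 to 4, with 2 without WT replicate 1 or 2, any Tet2KO replicate or dKO replicate 1.

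Over 18 pairs of libraries of the same replicate number, deviations from the genotype means correlated at -0.097 to 0.113. The median was 0.0265, against -0.014 for pairs of different number between genotypes. Values this weak do not settle whether the numbers pair the libraries. A replicate block gave 14 calls between Tet2KO and WT, 3 between Id1KO and WT, 7 between dKO and Tet2KO and 3 between dKO and Id1KO.

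Some values that were not called changed sign. Insig1 in Id1KO against WT was -0.01 without WT replicate 1. Srebf2 was -0.03 in Id1KO against WT without WT replicate 2 or Id1KO replicate 2 and -0.05 with summed libraries, -0.02 and -0.01 in dKO against WT without WT replicate 2 and dKO replicate 1, and -0.01 and -0.03 in dKO against Id1KO without Id1KO replicate 3 and dKO replicate 1. Srebf1 was 0 in dKO against Tet2KO without dKO replicate 1 and -0.04 with summed libraries, and 0.02 in dKO against Id1KO without dKO replicate 2. Their values farthest from these without 1 library reached 0.08 for Insig1, 0.05, 0.08 and 0.06 for Srebf2 in these 3 comparisons, 0.1 for Srebf1 in dKO against Tet2KO and -0.09 for Srebf1 in dKO against Id1KO. The cause of these sign changes was not tested. With summed libraries, the Id1 label effect was -0.05 for Srebf2 and -0.04 for Srebf1. That additive model fits the same Id1 effect for both Tet2 backgrounds, so these are not values of a single comparison.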
